A study of Homo sapiens with 6 samples.

Results

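Keratin genes encode the intermediate filament proteins of epithelial cells, and their transcripts were examined in OVCAR5, an established line of human ovarian cancer cells described in the labels as epithelial. Rows of the count table were counted as members when GENCODE release 44 mapped them to a protein-coding gene named KRT with a number and an optional letter. Keratin-associated proteins (KRTAP), KRTCAP genes and keratin pseudogenes were left out. The rule took 55 of the 60649 gene rows, of which 29 encode type I and 26 encode type II keratins. A keratin filament is built from pairs of 1 acidic type I and 1 basic type II protein, so both types are needed in a cell. Simple, single-layered epithelia are known for KRT8 and KRT18 with KRT7, KRT19 or KRT20, stratified epithelia for KRT5, KRT14, KRT1, KRT10, KRT4 and KRT13, and hair and nail for a separate set. Several of these proteins are used as markers by pathologists.

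The study transduced OVCAR5 cells with a lentivirus carrying METTL3, the catalytic subunit of the enzyme complex that writes N6-methyladenosine (m6A) on mRNA, or with an empty-vector lentivirus. Both lines were kept under puromycin until expression was stable, and 3 libraries of each were compared, called METTL3 and vector here. No cisplatin is named for these libraries, the lines are described as stable lines and not as single clones, and the design text calls the control samples parental where the treatment text gives them the empty vector. The labels name no separate cultures, so p-values measure the spread between libraries, which may be technical, and in bulk RNA fewer cells of a type and less RNA per cell cannot be told apart.

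Total counts ranged from 96633925 to 125463386, and values are given as CPM, a gene's count as a rate of its library's total, after scaling by the trimmed mean of M values (TMM). Groups were compared with the quasi-likelihood test of edgeR with Benjamini-Hochberg adjustment over 22038 genes. METTL3 itself was at 152, 165 and 175 CPM in replicates 1, 2 and 3 of the METTL3 line against 80.6, 68.6 and 71.6 CPM in those of the vector line. The groups did not overlap, with a log2 fold change of 1.16 (standard error, SE, 0.117, edgeR adjusted p = 0.072). In an exact two-sided permutation test p was 0.1, the smallest that 3 libraries against 3 allow. Replicate 1 of both groups stood apart. On the first principal component, with 40.5% of the variance, these libraries lay at -52.9 (METTL3) and -43 (vector) and the other 4 between 6.15 and 40.9. Fold changes of the named keratins are therefore given on all 6 libraries and also on replicates 2 and 3 of each group, a subset chosen with results of these data known. Epithelial markers were present in every library, with EPCAM, an epithelial adhesion molecule, from 247 to 483 CPM and the cell junction protein CDH1 from 184 to 439 CPM. Of the immune markers, PTPRC, CD3E and CD68 stayed at or below 0.1 CPM, while LYZ was at 28.1 to 57.0 CPM and CD14 at 7.02 to 11.4 CPM. Of the endothelial markers, KDR stayed at or below 0.1 CPM, VWF and CDH5 had means of 0.175 and 0.326 CPM, and PECAM1 was at 4.67 to 21.4 CPM.

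The keratin genes lie in a pair of clusters on GRCh38. On chromosome 12, 27 of them run from KRT80 to KRT18 between 52168996 and 52952906, and KRT18 is the only type I gene among them. On chromosome 17, 28 type I genes run from KRT222 to KRT17 between 40654665 and 41624842. Counts were found for 53 genes, while KRT73 and KRT28, known from the inner root sheath of hair, were at 0 in all libraries. A count of 0 allows up to 3 counts, which is 0.0239 to 0.031 CPM (counting error only) depending on the library. The filter on low counts passed 24 keratins, and the other 31 had at most 19 counts in any library. All 5 keratins of simple epithelium passed (KRT7, KRT8, KRT18, KRT19 and KRT20), as did 5 of 17 hair and nail keratins and 0 of 8 inner root sheath keratins.

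The reference promoters in RefSeq (GRCh38.p14) covered 34 of the 55 genes. For the keratins 1 promoter per gene was used, whereas the comparison counted all 35116 promoters without reduction to 1 per gene. To show what their start regions share, the letters TATAA or ATAAA on the gene's own strand were searched for between 40 and 20 bases before the start, and they were found in 29 of 34 keratin promoters (85.3%) against 6.23% of all 35116 promoters. The GC box letters GGGCGG, searched on both strands over 300 bases, were in 6 of 34 (17.6%) against 45% of all. TGANTCA, the letters bound by AP-1 factors, was in 0 of 34 against 7.71% of all. Of the 14 keratins with a mean of at least 1 CPM, only KRT8, KRT20, KRT10 and KRT4 are among the 34. The shares thus describe mostly keratins below that level in these cells. The start used for KRT8 lies 21393 bases from its annotated start, and that of KRT40 lies 2675 bases away. The 3 genes shown here have a start that equals the annotated one. Each run is the 100 bases before the start, 5′ to 3′ on the reverse strand, with the TATA-like letters in capitals, at chr17:40885243-40885342 for KRT20, chr17:40822615-40822714 for KRT10 and chr12:52814117-52814216 for KRT4.
KRT20: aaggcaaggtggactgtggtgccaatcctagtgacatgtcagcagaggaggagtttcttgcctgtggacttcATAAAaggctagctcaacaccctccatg
KRT10: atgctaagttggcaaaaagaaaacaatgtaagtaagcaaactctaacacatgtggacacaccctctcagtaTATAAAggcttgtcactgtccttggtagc
KRT4: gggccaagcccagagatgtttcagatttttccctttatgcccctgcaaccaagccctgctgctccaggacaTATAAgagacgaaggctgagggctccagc
The letters begin 28 bases before the start in KRT20 and 29 bases before it in KRT4. A match of letters is a description of sequence and not of binding. KRT7, KRT13, KRT18, KRT19 and KRT81 are not in the promoter table.

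Keratins of simple epithelium made up most of the keratin RNA. Per kilobase of the MANE Select transcript, the reference transcript of each gene, KRT8 had the highest level, with 2190 ± 423 CPM per kb (SD, n = 6 libraries of both groups). Its partner KRT18 followed with 1230 ± 158 CPM per kb, and the lowest KRT8 library lay above the highest KRT18 library. KRT19, a small type I keratin of ducts and glands, was at 503 ± 122 CPM per kb and overlapped with KRT7, the type II keratin of glandular epithelium, at 330 ± 60.1 CPM per kb. KRT20, known from intestinal epithelium, was next at 95.3 ± 31.4 CPM per kb.

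Below these, KRT23 (25.0 ± 6.87 CPM per kb) and KRT80 (24.7 ± 1.45 CPM per kb) overlapped. KRT10, a keratin of the cornifying epidermis, was at 14.6 ± 0.835 CPM per kb and was clear of both neighbours in the order. KRT15 of the basal layer, the hair keratin KRT81 and the mucosal keratin KRT13 had levels of 3.95 ± 0.519, 3.62 ± 2.12 and 2.66 ± 1.42 CPM per kb, and KRT81 overlapped with both of the others. KRT6B, KRT4 and KRT6A had means of 0.874, 0.670 and 0.552 CPM per kb and overlapped with each other. KRT5 and KRT14, the pair of basal stratified epithelium, did not reach a mean of 1 CPM, and KRT14 did not pass the filter.

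**Figure D1:**
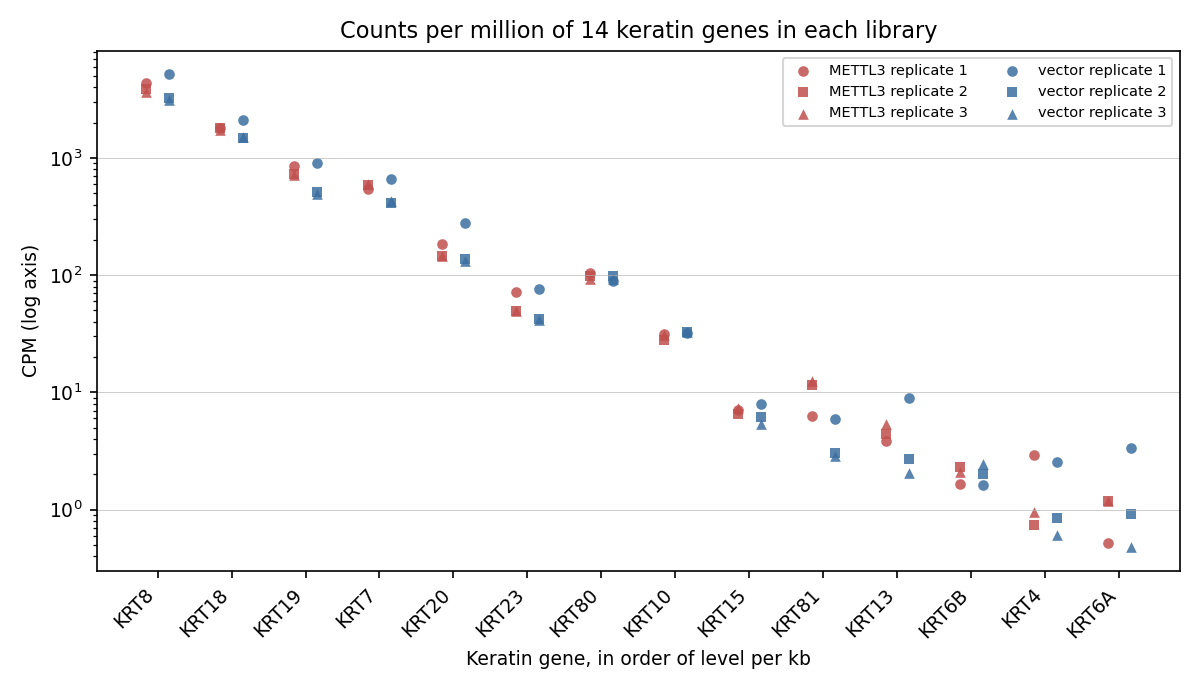
CPM on a log axis of the 14 keratin genes with a mean of at least 1 CPM, in order of level per kb, with 1 point for each library (red, METTL3; blue, vector; circle, square and triangle for replicates 1, 2 and 3). The blue circle, vector replicate 1, is the highest point for 9 of the 14 genes, and the red and blue points are apart only for KRT81 and KRT10. The share of all genes that are highest in vector replicate 1 was not computed.

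Summed over type I genes, the level per kb was 2040, 1910 and 1870 CPM per kb in METTL3 replicates 1, 2 and 3, and 2350, 1530 and 1540 CPM per kb in vector replicates 1, 2 and 3. For type II the sums were 2820, 2540 and 2460 CPM per kb with METTL3, and 3320, 2120 and 2040 CPM per kb with the vector. In both types the highest library was vector replicate 1 and the lowest libraries were vector replicates 2 and 3, so the groups overlapped. The difference between the group means of the log2 sums, METTL3 minus vector, was 0.13 for type I and 0.10 for type II on all 6 libraries. It was 0.30 and 0.27 in replicates 2 and 3. The ratio of type II to type I varied little, from 1.32 to 1.42. Its value rests on the length chosen, and with the union of all exons, which is long for KRT8, it was 0.726 to 0.752.

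KRT8 held 83.8% to 87.0% of the type II sum and KRT18 held 62.3% to 69.8% of the type I sum. KRT19 held 28.3% of the type I sum on average with METTL3 and 24.9% with the vector, with a range of 22.9% to 30.0% over the libraries. All keratins together took 0.587% to 0.932% of the library total after TMM scaling.

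**Figure D2:**
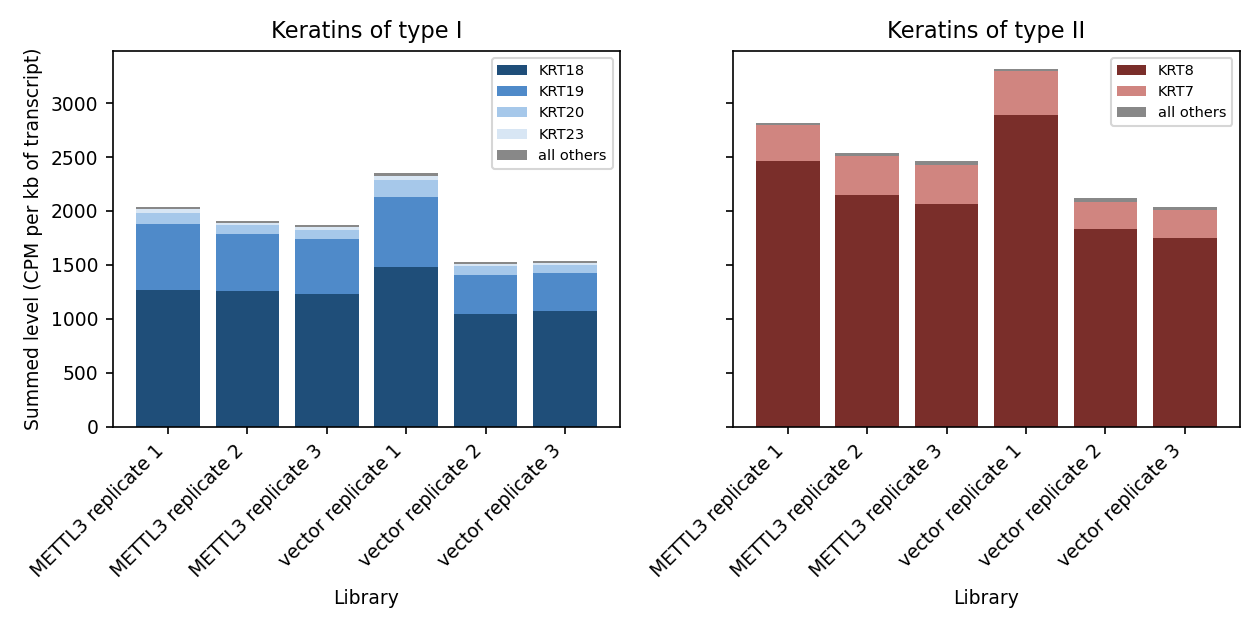
Summed CPM per kb of transcript in each library for type I keratins (left, blue) and type II keratins (right, red), divided by gene, with replicates 1 to 3 of METTL3 and then of the vector on the x axis. Vector replicate 1 has the tallest bar in both panels, and KRT8 and KRT18 fill most of each bar.

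To examine whether keratin transcripts differed with METTL3 overexpression, the 24 keratins that passed the filter were compared between the groups. With all 6 libraries, edgeR called 0 of them, against 0 of all 22038 genes (0%). An unadjusted p under 0.05 was found for 2 keratins, KRT81 and KRT6C, and for 1830 genes in all (8.3%). DESeq2 called 1 keratin higher, KRT81, where 280 genes in all were called, 0.876% of those tested as higher. Without a filter on low counts edgeR also called KRT81 alone (0.782% of all genes higher), and without vector replicate 1 it called KRT81 and KRT19 (0.676% of all genes higher). The fold change was above 0 for 17 of the 24 keratins and for 47.3% of all genes, with a median log2 fold change of 0.098 for the keratins and -0.018 for all genes.

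On replicates 2 and 3 of each group, edgeR called 8 of 24 keratins higher with METTL3 and 0 lower. Of all genes, 6.66% were called higher and 8.59% lower there. The 8 genes were KRT7, KRT8, KRT18, KRT19, KRT23, KRT13, KRT17 and KRT81. DESeq2 on the same libraries called 8 keratins higher (6.99% of all genes), and the names were the same. Upper-quartile normalization also gave 8 (6.15% of all genes), and removing trends with GC content and length gave 9 (11.1% of all genes). Each of these calls was made on 2 libraries a group, and replicate 1 does not enter its error. In the replicate 1 libraries, compared with each other, 10 of the 14 keratins with at least 1 CPM were lower with METTL3, whereas 11 were higher in replicate 2 and 12 in replicate 3. The matching shares of all genes were not computed, so these counts cannot be called particular to keratins.

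**Figure D3:**
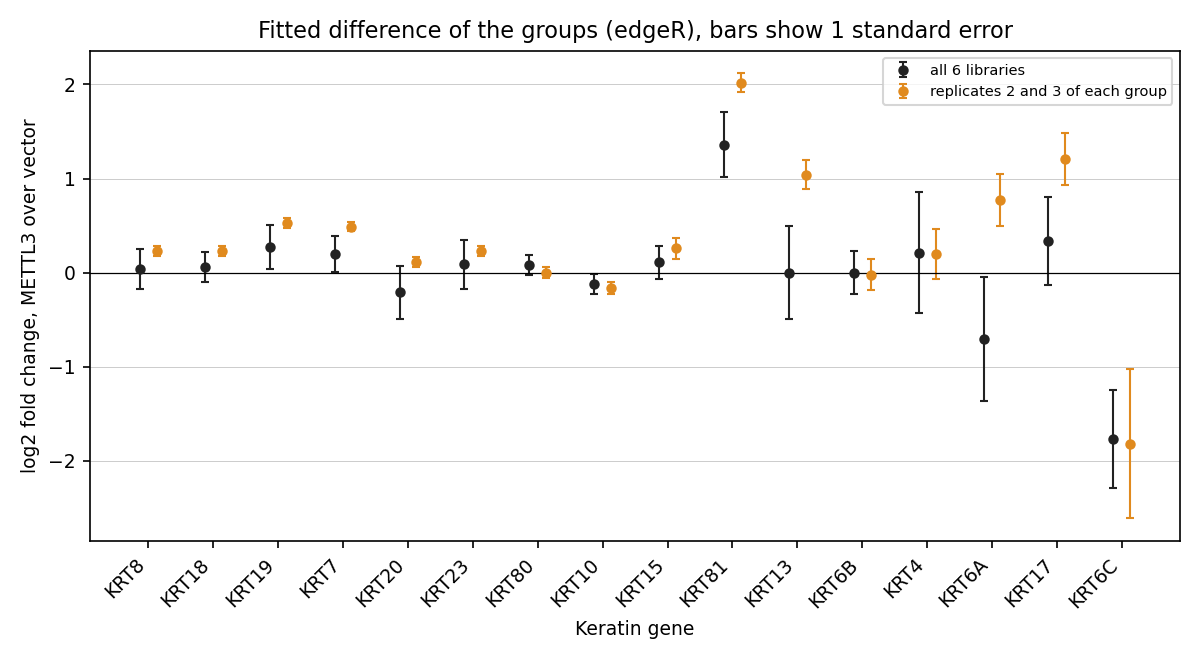
Log2 fold change, METTL3 over vector, fitted by edgeR for 16 keratin genes, with bars of 1 standard error, on all 6 libraries (black) and on replicates 2 and 3 of each group (orange). KRT81 has the highest value in both fits (1.36 and 2.02), and KRT13 moves from 0.00 to 1.04.

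Among the keratins of simple epithelium, vector replicate 1 was the highest library for each of the 5 genes. KRT8 (ENSG00000170421.12, chromosome 12, 52897187 to 52949954) was at 4390, 3840 and 3680 CPM in METTL3 replicates 1, 2 and 3 against 5150, 3270 and 3130 CPM in vector replicates 1, 2 and 3. The METTL3 libraries lay inside the range of the vector libraries, and the log2 fold change was 0.04 (SE 0.209, edgeR adjusted p = 0.964). In replicates 2 and 3 KRT8 rose by 0.23 on the log2 scale (SE 0.0501, edgeR adjusted p = 0.00592).

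KRT18 (ENSG00000111057.11, chromosome 12, 52948871 to 52952906), the partner of KRT8, was at 1790, 1780 and 1740 CPM with METTL3 against 2090, 1480 and 1510 CPM with the vector. The METTL3 libraries were close together and the vector libraries enclosed them. The log2 fold change was 0.06 (SE 0.162, edgeR adjusted p = 0.925), and in replicates 2 and 3 KRT18 rose by 0.23 (SE 0.0494, edgeR adjusted p = 0.00516), the same value as KRT8. The exons of KRT8 and KRT18 overlap on opposite strands over 525 bases, 17.11% of the exonic bases of KRT18, and whether counting used strand is not given in the sources used here.

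KRT7 (ENSG00000135480.16, chromosome 12, 52232520 to 52252186) was at 541, 587 and 594 CPM with METTL3 against 659, 416 and 425 CPM with the vector. It was the one keratin of this class for which METTL3 replicate 1 was the lowest METTL3 library. Its log2 fold change was 0.20 (SE 0.188, edgeR adjusted p = 0.762), and in replicates 2 and 3 it rose by 0.49 (SE 0.05, edgeR adjusted p = 1.21e-05).

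KRT19 (ENSG00000171345.13, chromosome 17, 41523617 to 41528308) was at 849, 730 and 715 CPM with METTL3 against 902, 514 and 488 CPM with the vector. Vector replicate 1 again lay above all METTL3 libraries, and vector replicates 2 and 3 below them. The log2 fold change was 0.27 (SE 0.235, edgeR adjusted p = 0.746). It was 0.61 without vector replicate 1 (adjusted p = 0.0447) and 0.53 in replicates 2 and 3 (adjusted p = 7.67e-06).

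KRT20 (ENSG00000171431.4, chromosome 17, 40875889 to 40885242) was at 186, 147 and 146 CPM with METTL3 against 281, 138 and 133 CPM with the vector. As in KRT8, KRT18 and KRT19, both replicate 1 libraries were the highest of their group. Of the 5 simple epithelial keratins KRT20 alone had a negative log2 fold change on all 6 libraries, -0.21 (SE 0.281, edgeR adjusted p = 0.840), and alone did not pass in replicates 2 and 3, where it was 0.11 (adjusted p = 0.182).

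KRT81 (ENSG00000205426.10, chromosome 12, 52285913 to 52291534), a type II keratin of the hair cortex, had the highest log2 fold change among the tested keratins. It was at 6.24, 11.5 and 12.4 CPM in METTL3 replicates 1, 2 and 3 against 5.88, 3.03 and 2.87 CPM in vector replicates 1, 2 and 3. It was the only tested keratin with every METTL3 library above every vector library, although the replicate 1 libraries were close. Such a separation was found for 8.47% of all tested genes. The log2 fold change was 1.36 (SE 0.348, unadjusted p = 0.00418, edgeR adjusted p = 0.415), and DESeq2 gave an adjusted p of 0.00721. Between libraries of one number the difference was 0.09 on the log2 scale in replicate 1, 1.93 in replicate 2 and 2.11 in replicate 3, and in replicates 2 and 3 together KRT81 rose by 2.02 (SE 0.102, edgeR adjusted p = 2.59e-08).

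KRT81 has a near copy. Of the 50-base windows of its transcript, 44.6% also occur in other transcripts and 38.4% in KRT86, another hair keratin, so counting may have split reads between the genes. KRT86 was at 1.01, 0.815 and 0.585 CPM with METTL3 against 0.791, 0.345 and 0.670 CPM with the vector. Those groups overlapped, and the log2 fold change of KRT86 was 0.42 (SE 0.358, edgeR adjusted p = 0.739) on all 6 libraries and 0.47 in replicates 2 and 3 (adjusted p = 0.415). The other hair and nail keratins that were tested, KRT83, KRT34 and KRT32, had at most 0.210 CPM in any library.

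Since m6A is often found within the letters GGACT, written in DNA, the 3 places where the KRT81 transcript holds them are shown with 8 bases on each side and the letters in capitals. The first lies in the 5′ UTR, in exon 1 at chr12:52291505-52291525 on the reverse strand of GRCh38, and its run of bases is not in KRT86. The second spans a junction of coding exons, with GGACT in exon 4, and the last lies in coding exon 5 at chr12:52288059-52288079. Both of these runs are also in KRT86.
KRT81 first: ttccatcaGGACTccaggtcc
KRT81 second: aaggatgtGGACTgcgcctac
KRT81 last: ctgaacatGGACTgcatcatt
The frequency of these letters was 1.56 per kb in KRT81. Its median was 0.74 per kb for the 55 keratins against 0.924 per kb for 19051 protein-coding genes. The letters were absent from 11 of the 55 keratins and from 11.5% of those genes. Methylation was not measured in these libraries.

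**Figure D4:**
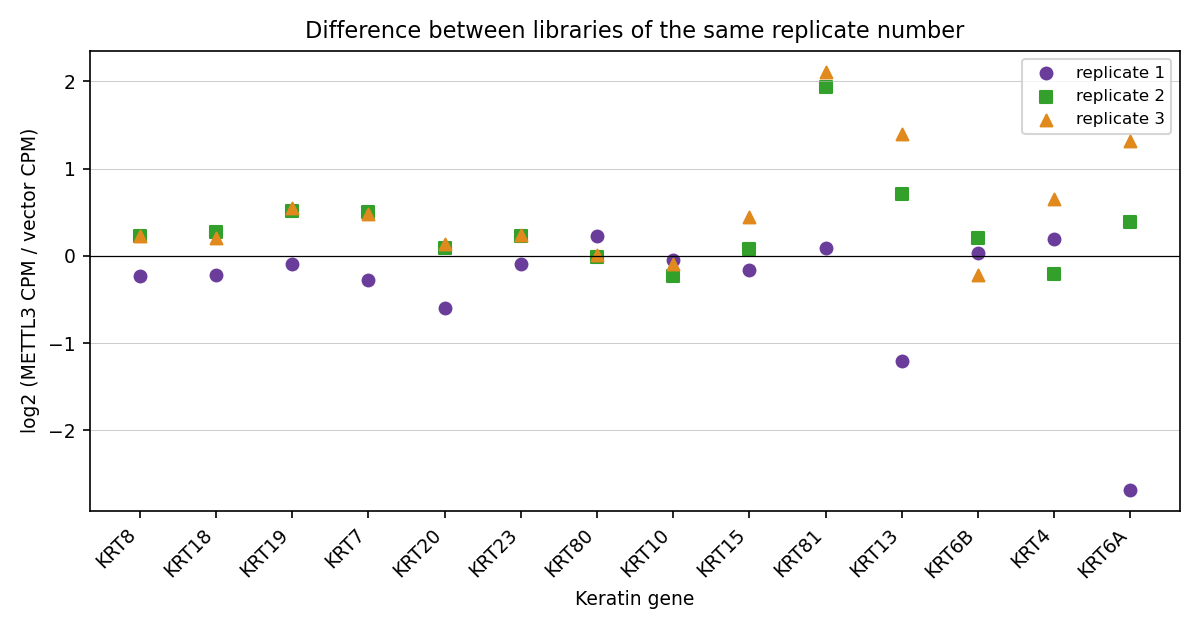
Log2 of METTL3 CPM over vector CPM for libraries of the same replicate number, for the 14 keratins with a mean of at least 1 CPM (purple circles, replicate 1; green squares, replicate 2; orange triangles, replicate 3). Replicate 1 lies below 0 for 10 genes (share of all genes not computed), and KRT81 lies near 2 in replicates 2 and 3 and near 0 in replicate 1.

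Among keratins of stratified epithelium and of stress, KRT13 and KRT17 were the 2 genes that passed in replicates 2 and 3. KRT13 (ENSG00000171401.15, chromosome 17, 41500981 to 41505705), a keratin of internal mucosa, was at 3.84, 4.45 and 5.38 CPM with METTL3 against 8.90, 2.73 and 2.05 CPM with the vector. The highest and the lowest library were both vector libraries. The group means were equal, 4.56 ± 0.777 and 4.56 ± 3.78 CPM (SD, n = 3 each), and the log2 fold change was 0.00 (SE 0.494, edgeR adjusted p = 0.999). In replicates 2 and 3 KRT13 rose by 1.04 (SE 0.156, edgeR adjusted p = 3.68e-04), whereas between the replicate 1 libraries it was lower with METTL3 by 1.21 on the log2 scale.

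KRT17 (ENSG00000128422.17), a keratin of skin appendages and of stressed epithelium, was at 0.771, 0.791 and 1.08 CPM with METTL3 against 1.30, 0.425 and 0.380 CPM with the vector. Its libraries stood in the same order as those of KRT13, with vector replicate 1 on top and vector replicate 3 at the bottom. The log2 fold change was 0.34 (SE 0.467, edgeR adjusted p = 0.842), and in replicates 2 and 3 it rose by 1.21 (SE 0.279, edgeR adjusted p = 0.0086). KRT6A, induced like KRT17 in wounded skin, was at 0.523, 1.19 and 1.19 CPM with METTL3 against 3.35, 0.911 and 0.480 CPM with the vector. METTL3 replicate 1 and vector replicate 3 were low, and vector replicate 1 was the highest. Its log2 fold change was -0.70 on all 6 libraries (SE 0.659, edgeR adjusted p = 0.761) and 0.77 in replicates 2 and 3 (adjusted p = 0.0815).

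KRT6B and KRT6C are near copies of KRT6A, and 46.6% and 53.1% of their 50-base windows occur in other transcripts, mostly in each other. KRT6B, at 1.65, 2.30 and 2.08 CPM with METTL3 against 1.61, 2.01 and 2.43 CPM with the vector, had a log2 fold change of 0.00 (SE 0.230, edgeR adjusted p = 0.997) and of -0.02 in replicates 2 and 3 (adjusted p = 0.968). KRT6C (ENSG00000170465.10) held few reads, with counts of 4, 5 and 2 in METTL3 replicates 1, 2 and 3 and 11, 14 and 11 in vector replicates 1, 2 and 3. All METTL3 libraries were below all vector libraries, and the log2 fold change was -1.77 (SE 0.519, unadjusted p = 0.0084, edgeR adjusted p = 0.454). It was -1.82 for KRT6C in replicates 2 and 3 (SE 0.791, adjusted p = 0.152). KRT6C and KRT10 were the keratins of which the groups did not overlap with METTL3 lower, a separation found for 8.93% of all tested genes.

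KRT10 (ENSG00000186395.9), the type I partner of KRT1 in the upper epidermis, was at 31.3, 28.1 and 30.6 CPM with METTL3 against 32.3, 32.9 and 32.6 CPM with the vector. The gap between the groups was small beside their levels, and the log2 fold change was -0.12 (SE 0.107, edgeR adjusted p = 0.748) on all 6 libraries and -0.16 in replicates 2 and 3 (adjusted p = 0.117). Its vector libraries had an SD of 0.277 CPM (n = 3), without the high vector replicate 1 seen in the simple epithelial keratins. KRT80, a type II keratin of many epithelia, was at 104, 98.4 and 92.5 CPM with METTL3 against 88.4, 98.7 and 92.0 CPM with the vector (log2 fold change 0.08, SE 0.107, adjusted p = 0.840 from edgeR). Vector replicate 1 was its lowest library, the groups overlapped, and in replicates 2 and 3 the log2 fold change of KRT80 was 0.00 (adjusted p = 0.999).

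KRT15, which marks basal cells and hair follicle stem cells, was at 7.09, 6.58 and 7.34 CPM with METTL3 against 7.91, 6.21 and 5.40 CPM with the vector, overlapping groups with a log2 fold change of 0.11 (adjusted p = 0.871 from edgeR) on all 6 libraries and 0.26 in replicates 2 and 3 (adjusted p = 0.142). KRT23, an epithelial type I keratin, was at 72.1, 49.7 and 49.3 CPM with METTL3 against 76.6, 42.5 and 41.8 CPM with the vector. Both replicate 1 libraries of KRT23 were higher than the rest, as in KRT8, KRT18, KRT19, KRT20 and KRT4. The log2 fold change of KRT23 was 0.09 (SE 0.259, edgeR adjusted p = 0.935), and it rose by 0.23 in replicates 2 and 3 (adjusted p = 0.0113). KRT4, the mucosal partner of KRT13, was at 2.91, 0.742 and 0.951 CPM with METTL3 against 2.54, 0.858 and 0.606 CPM with the vector. Its order thus differed from that of KRT13, in which METTL3 replicate 1 was the lowest METTL3 library, and the log2 fold change was 0.21 (SE 0.644, edgeR adjusted p = 0.939) on all 6 libraries and 0.20 in replicates 2 and 3 (adjusted p = 0.693).

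Processed copies of keratin genes are numerous, and their rows were counted apart from the members. The 51 KRT8 pseudogenes summed to 23.4 to 34.3 CPM and the 67 KRT18 pseudogenes to 4.65 to 6.66 CPM, far below their parent genes. Of the 50-base windows, 39.2% of KRT8 and 35.3% of KRT18 occur in other transcripts, against 1.79% of KRT19, 1.08% of KRT7 and 1.02% of KRT13. KRT17 shares 17.4% of its windows. The antisense gene KRT7-AS, which lies opposite part of KRT7, was at 5.42 to 6.11 CPM with METTL3 against 3.90 to 6.39 CPM with the vector, with its highest value in vector replicate 1 as for KRT7.

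Genes that hold keratin filaments at desmosomes and hemidesmosomes were described beside the keratins, from a list of 18 genes of which 16 were tested. On all 6 libraries 0 were called by edgeR, 7 had an unadjusted p under 0.05 (8.3% of all genes), and 14 had a fold change above 0 (47.3% of all genes), with a median log2 fold change of 0.35. PLEC, the cytolinker plectin, was at 1800, 1670 and 1360 CPM with METTL3 against 966, 1630 and 1260 CPM with the vector. The integrin subunit genes ITGA6 and ITGB4, partners in hemidesmosomes, were next in level. ITGB4 was at 328 to 449 CPM with METTL3 against 213 to 314 CPM with the vector, groups that did not overlap (log2 fold change 0.54, SE 0.177, adjusted p = 0.526 from edgeR), and ITGA6 had a log2 fold change of 0.04 (adjusted p = 0.956). In replicates 2 and 3, edgeR called 7 linkers higher and 1 lower, where 6.66% of all genes were called higher and 8.59% lower, with a median of 0.27.

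The list of 21 transcription factors known to act on keratin or epithelial genes had 20 tested members and 0 called on all 6 libraries, with 15 above 0 (47.3% of all genes) and a median log2 fold change of 0.21. EHF, an epithelial ETS factor, was the most abundant, at 654, 555 and 511 CPM with METTL3 against 552, 358 and 344 CPM with the vector. Its vector replicate 1 was the highest vector library, as for the simple epithelial keratins, but did not exceed METTL3 replicate 1 (log2 fold change 0.46, SE 0.201, adjusted p = 0.604 from edgeR). FOSL1, a subunit of AP-1, was low in both replicate 1 libraries, at 145 and 136 CPM, against 288 to 320 CPM in the others, and the stress factor NFE2L2 was even, at 145 to 193 CPM. In replicates 2 and 3, edgeR called 8 of the factors higher (6.66% of all genes) and 2 lower (8.59%).

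Of 10 genes for keratin binding and turnover, 4 had a fold change above 0 on all 6 libraries (47.3% of all genes) and 0 were called, with a median log2 fold change of -0.02. The edgeR fit on replicates 2 and 3 called 2 higher (6.66% of all genes) and 0 lower. HSPA8 and HSPB1, chaperones, had log2 fold changes of -0.08 and 0.05 (adjusted p = 0.918 and 0.913 from edgeR). FAM83H, which brings casein kinase to keratin filaments, was at 311, 241 and 216 CPM with METTL3 against 147, 178 and 154 CPM with the vector. Its groups did not overlap (log2 fold change 0.68, adjusted p = 0.395), and in replicates 2 and 3 it rose by 0.46 (adjusted p = 6.49e-04 from edgeR).

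Of 15 other intermediate filament genes 11 were tested, and 4 of these had a fold change above 0, against 47.3% of all genes. On all 6 libraries 0 were called, and in replicates 2 and 3 edgeR called 0 higher (6.66% of all genes) and 4 lower (8.59%). VIM, which encodes vimentin of mesenchymal cells, was at 110, 309 and 305 CPM in METTL3 replicates 1, 2 and 3 against 264, 517 and 522 CPM in vector replicates 1, 2 and 3. It was lower with METTL3 at each replicate number, but METTL3 replicates 2 and 3 lay above vector replicate 1. Its log2 fold change was -0.85 on all 6 libraries (adjusted p = 0.617 from edgeR), and in replicates 2 and 3 it fell by 0.76 (adjusted p = 3.24e-07). The nuclear lamin genes LMNA and LMNB2 had log2 fold changes of -0.02 and 0.05 (adjusted p = 0.978 and 0.942 from edgeR).

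Epithelial markers other than keratins were above 0 in fold change for 11 of 11 genes (47.3% of all genes), with a median log2 fold change of 0.42. On all 6 libraries edgeR called 0 of them, and 5 had an unadjusted p under 0.05 (8.3% of all genes). CDH1, which encodes E-cadherin, was at 439, 358 and 346 CPM with METTL3 against 201, 184 and 189 CPM with the vector. The 3 vector libraries were close together and below all METTL3 libraries (log2 fold change 0.99, SE 0.131, adjusted p = 0.170 from edgeR). EPCAM, at 437, 414 and 432 CPM with METTL3 against 483, 247 and 271 CPM with the vector, had vector replicate 1 on top and vector replicates 2 and 3 at the bottom, as KRT19 did (log2 fold change 0.36, adjusted p = 0.672). The protease gene ST14 had a log2 fold change of 0.52 (adjusted p = 0.547 from edgeR). Of the 11 markers, 10 were called higher (6.66% of all genes) and 0 lower (8.59%) in replicates 2 and 3.

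**Figure D5:**
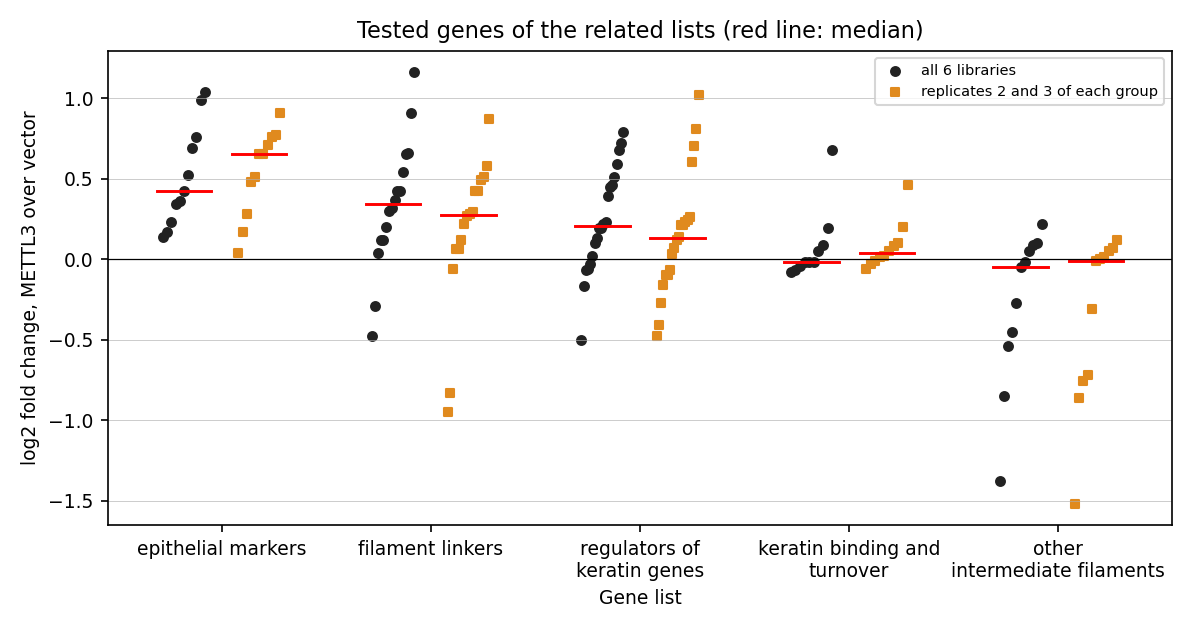
Log2 fold change, METTL3 over vector, of the tested genes of 5 lists related to keratins, with 1 point per gene and a red line at each median (black circles, all 6 libraries; orange squares, replicates 2 and 3 of each group). The epithelial markers all lie above 0 in both fits, with medians of 0.42 and 0.65, and the other intermediate filament genes have medians of -0.05 and -0.01.

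Mesothelium, which lines the peritoneum, also makes simple epithelial keratins, and the summed level of its markers did not overlap between the groups. The 4 tested markers of 5 (MSLN, CALB2, UPK3B and LRRN4) all had a fold change above 0 (47.3% of all genes) and an unadjusted p under 0.05 (8.3%), 0 were called on all 6 libraries, and 3 were called higher by edgeR in replicates 2 and 3 (6.66%). With WT1 the summed level was 108 to 118 CPM with METTL3 against 82.1 to 88.2 CPM with the vector, while the mesothelial factor WT1 was at 0 to 0.204 CPM. Of all tested genes, 8.47% had every METTL3 library above every vector library. All libraries were of the OVCAR5 line, and the part of the marker genes in the keratin values was not tested. The summed fibroblast markers were at 17.6 to 20.2 CPM with METTL3 against 9.38 to 20.5 CPM with the vector, nearly all from COL1A1, with 4 of 8 at or under 0.1 CPM on average and 0 called in either fit. The summed immune markers were at 35.9 to 47.9 CPM and 44.5 to 64.2 CPM, from LYZ and CD14, with 0 called on all 6 libraries and 1 of 2 tested called lower in replicates 2 and 3 (8.59% of all genes). The summed endothelial markers were at 7.99 to 22.2 CPM and 5.15 to 8.18 CPM, almost all PECAM1, with 0 called on all 6 libraries and 1 of 3 tested called higher in replicates 2 and 3 (6.66% of all genes).

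KRT13 was chosen for a further comparison because the paper lists it as higher with METTL3 overexpression and lower after METTL3 knockdown. On all 6 libraries here its log2 fold change was 0.00 with edgeR and 0.03 with DESeq2. In replicates 2 and 3 it was 1.04 (edgeR adjusted p = 3.68e-04), close to the fold change that the paper lists for overexpression. The reason for this closeness was not tested. Of the keratins that passed in replicates 2 and 3, it had the widest relative swing among the vector libraries. KRT13 was compared with the 14683 genes of at least 1 CPM by Pearson's correlation of log2 CPM over the 6 libraries. The genes with the most similar pattern were UFD1-AS1 (r = 0.995), ZNF551 (r = 0.989), AIFM2 (r = 0.987), TRIM16L (r = 0.985) and LINC01176 (r = 0.985). AIFM2 was at 38.1, 39.7 and 40.6 CPM with METTL3 against 46.1, 37.2 and 34.8 CPM with the vector. Its swing was far narrower than that of KRT13, in the same order of libraries. With 6 points that share their libraries and the replicate 1 split, this is a description of the pattern.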

How the data were processed

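RNA-seq of OVCAR5 cells gave 3 METTL3 and 3 vector libraries. The authors aligned reads to hg38 (GRCh38) with HISAT2 and counted them per gene with featureCounts of Subread, and fastp is also named in the submitters' processing notes. The deposited values are raw counts with no normalization. Versions, annotation release, strand and multimapping settings are not given in the sources used here. The library kit is NEBNext with single-end reads in the methods, but stranded TruSeq with paired ends in the labels. Of counts from 1 to 20, 67.6% to 70.5% were even, so counts divided by 2 were also tested. Identifiers were matched without version to GENCODE release 44, which named 60507 of 60649 rows.

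With edgeR 4.0.16 in R 4.3.3, genes that passed filterByExpr were scaled by TMM and fitted with glmQLFit (robust) and glmQLFTest on all 6 libraries, with Benjamini-Hochberg adjustment over all genes tested and a threshold of 0.05. Standard errors were obtained by dividing the absolute log2 fold change by the square root of F. The methods name DESeq2 (version 1.42.0 here, with a threshold of 0.05), which was run as an alternative. Levels per kb used MANE Select transcripts in place of the longest, with the longest transcript, coding length and union of exons as alternatives. Other alternatives were other size factors, other filters, the replicate block, each library left out, and replicates 2 and 3. Floors and counts reflect counting error only. Scripts were tested on simulated counts.

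Replicate numbers are shared by the groups. The deviations of same-numbered libraries from their group means correlated at 0.334, 0.120 and 0.175, each over the minimum of 0.1. The numbers were therefore taken as pairs in the replicate block and in the ratios by replicate number. The other fits were unpaired. The pairing comes from the values, and libraries with different numbers also reached 0.205 and 0.133. METTL3 replicate 2 correlated more with vector replicate 3 (0.205) than with vector replicate 2 (0.120). Replicate 1 stood apart in both groups, so the check does not tell whether replicates 2 and 3 are paired by number.

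The keratins, lists and tests were chosen with earlier results of these data known. Named are keratins with a mean of at least 1 CPM, those called in any fit, those tested whose groups did not overlap, their near copies, up to 3 most abundant genes per list, and the 5 genes most like KRT13. Likeness used log2 of CPM plus 0.5. Markers named to check the cell type were chosen after their values were seen.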

Additional observations from a re-analysis of the deposited data

How the results depend on the processing

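The number of keratins called by edgeR was 0 on all 6 libraries and also with DESeq2 size factors, upper-quartile normalization, at least 10 counts in every library, counts divided by 2 and the replicate block, which changed no call of a named gene. It was 1 with DESeq2, 1 without a filter on low counts, and 0 to 2 when single libraries were left out, the 2 being KRT81 and KRT19 without vector replicate 1. In replicates 2 and 3 it was 8 with edgeR, and in alternatives chosen after seeing the data 8 with DESeq2, 8 with upper-quartile normalization and 9 with trends of GC content and length removed, where KRT6A was the added gene (adjusted p = 0.0473). The cause was not tested. METTL3 passed the threshold with DESeq2 (log2 fold change 1.18, adjusted p = 1.36e-14), without a filter (1.18, adjusted p = 2.64e-11), without vector replicate 1 (1.23, adjusted p = 0.00708) and in replicates 2 and 3 (1.28, adjusted p = 1.59e-08), and it ranged from 1.13 to 1.23 with single libraries left out.

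KRT81 kept a positive log2 fold change, from 1.20 to 1.77 with single libraries left out. Of the 14 keratins with a mean of at least 1 CPM, 7 changed sign under an alternative. KRT6B was 0.01 with DESeq2, with its size factors in edgeR, without a filter and with counts divided by 2, 0.02 with at least 10 counts, 0.00 with the replicate block, and -0.14 to 0.17 with single libraries left out. KRT6A was 0.77 and KRT20 0.11 in replicates 2 and 3, and KRT13 was -0.01 with upper-quartile normalization. With single libraries left out KRT6A ranged from -1.09 to 0.48, KRT4 from -0.62 to 1.06, KRT8 from -0.05 to 0.31, KRT20 from -0.36 to 0.24, KRT23 from -0.09 to 0.44 and KRT13 from -0.31 to 0.93. The summed levels of type I and type II moved by less than the spread between libraries under each length and without any single library, with log2 differences of 0.03 to 0.34 and -0.03 to 0.32. Depth limits KRT6C, with at most 14 counts in a library, and the 31 untested keratins, with at most 19.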
